A study of Homo sapiens with 6 samples.

Results

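The NF-kB subunits and feedback inhibitors described here are 10 listed genes, and their members on the array were taken as every probe whose platform annotation gives 1 of the 10 symbols. That gave 13 probes of 9 genes, out of 48803 probes on the array, of which 27578 were annotated to 1 of 18665 genes. BIRC3, which encodes the ubiquitin ligase cIAP2, had no annotated probe, so its expression is not analysed here. The members were chosen by their role in the pathway and with the measured differences between transfected and control arrays in view. The differences between the groups are therefore given for these genes as a description, with no p-value.

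Gene expression was measured on 6 Illumina BeadChip arrays of 1 slide. The 3 transfected arrays held HEK293T cells given a plasmid dose of 4 micrograms of cloned hsa-miR-128, and the 3 control arrays held HEK293T cells with no treatment named. HEK293T is a line from human embryonic kidney in which the large T antigen of SV40 is expressed. The labels do not say whether controls received an empty plasmid, nor which of the hairpins that give miR-128 was cloned, and the transfected and control arrays occupy different sections of the slide. Section and group cannot be told apart.

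NF-kB is a family of dimeric transcription factors built from NFKB1 (p105/p50), NFKB2 (p100/p52), RELA (p65), RELB and REL. In resting cells inhibitors of the IkB family hold the dimers in the cytoplasm. Signals from receptors for tumour necrosis factor, interleukin-1 or microbial products activate the IKK kinases, which mark the inhibitors for destruction. The released dimers switch on inflammatory and survival genes and also the genes for their own inhibitors, among them NFKBIA (IkB-alpha), NFKBIE (IkB-epsilon) and TNFAIP3 (A20), so the system limits itself.

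The microRNA given to the cells is shown first, because its seed (bases 2 to 8, in capitals) is the part that pairs with messenger RNAs. Both hairpins give the same 3p strand and differ in the 5p strand, and RefSeq on GRCh38.p14 places MIR128-1 on chromosome 2 and MIR128-2 on chromosome 3.
hsa-miR-128-3p: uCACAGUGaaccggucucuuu
hsa-miR-128-1-5p: cGGGGCCGuagcacugucugaga
hsa-miR-128-2-5p: gGGGGCCGauacacuguacgaga

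Most of the promoter windows found for the members match the kind of site that NF-kB itself binds. For 4 members, whose transcripts are described in most detail below, 1 window with a match is shown. NFKB1 and NFKB2 each also have a window without a match. RefSeq promoter windows on GRCh38.p14 run from 250 bases before to 50 after a start site, and 13 windows were found for 8 of the 10 members. Capitals mark matches, on either strand, to the kappaB consensus.
NFKB1, chr4:102501109-102501408, plus strand: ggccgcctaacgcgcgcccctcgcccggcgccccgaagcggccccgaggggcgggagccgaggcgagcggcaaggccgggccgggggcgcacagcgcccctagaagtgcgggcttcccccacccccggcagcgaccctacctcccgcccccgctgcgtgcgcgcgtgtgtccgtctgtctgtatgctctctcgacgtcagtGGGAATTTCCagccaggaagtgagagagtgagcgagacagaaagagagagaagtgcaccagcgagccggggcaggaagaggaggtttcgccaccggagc
NFKB2, chr10:102394328-102394627, plus strand: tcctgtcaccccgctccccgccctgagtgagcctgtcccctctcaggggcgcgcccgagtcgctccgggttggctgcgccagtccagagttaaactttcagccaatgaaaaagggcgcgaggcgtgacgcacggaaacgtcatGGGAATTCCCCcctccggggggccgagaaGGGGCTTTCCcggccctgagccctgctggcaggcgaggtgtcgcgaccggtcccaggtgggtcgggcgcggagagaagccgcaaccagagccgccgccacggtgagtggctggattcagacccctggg
NFKBIA, chr14:35404700-35404999, minus strand: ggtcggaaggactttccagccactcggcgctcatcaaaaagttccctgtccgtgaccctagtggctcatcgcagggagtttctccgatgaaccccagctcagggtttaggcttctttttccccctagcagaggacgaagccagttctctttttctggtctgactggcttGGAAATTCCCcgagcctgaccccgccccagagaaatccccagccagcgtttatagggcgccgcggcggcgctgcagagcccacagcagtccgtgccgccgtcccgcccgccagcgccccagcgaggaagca
TNFAIP3, chr6:137867009-137867308, plus strand: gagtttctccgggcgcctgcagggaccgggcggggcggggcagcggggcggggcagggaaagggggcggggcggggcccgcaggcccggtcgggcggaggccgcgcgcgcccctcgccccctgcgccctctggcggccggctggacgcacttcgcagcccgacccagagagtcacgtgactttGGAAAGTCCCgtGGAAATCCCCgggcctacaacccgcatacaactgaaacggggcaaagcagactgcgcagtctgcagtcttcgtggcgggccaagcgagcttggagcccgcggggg
A consensus match was present in at least 1 window of 7 of the 8 members, and in 9 of the 13 windows. One was held by 5.91% of all 35116 promoter windows of the reference. By gene, 7.09% of 27305 genes had a consensus match in any window. NFKB1 held GGGAATTTCC with its first base 49 bases before the start. In NFKBIA the match GGAAATTCCC began 81 bases before the start, and TNFAIP3 held a pair, GGAAAGTCCC at 67 and GGAAATCCCC at 55 bases before it. REL, NFKBIZ and BIRC3 also had matches, and neither of the 2 RELA windows did. These matches describe letters in a window and not binding in these cells.

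Array quality bears on what follows. Mean signal per array ran from 408 to 591 in transfected arrays and from 513 to 660 in controls, and 12995 to 14298 probes were detected in transfected arrays, against 14001 to 14345 in controls. A probe counts as detected on an array where its detection p against the negative control beads was under 0.01, and probes detected on at least 3 of the 6 arrays (14200) were kept for testing. Control 1 was the brightest array and stood apart from controls 2 and 3 for many of the genes described here, so values without it are given for the members and for several other genes. Among markers of other cells, the leukocyte genes PTPRC, CD3E, LYZ and CSF1R were detected on no array, CD14 on 1 and ITGAM on 2. CD68, a lysosomal protein of macrophages and other cells, was detected on all 6. Its brighter probe had a log2 fold change of -0.49 ± 0.24 (SE), or -0.33 without control 1, and the groups overlapped. Its other kept probe gave 0.12. Of 6 fibroblast genes, 5 were kept and COL1A2 was detected on no array. COL1A1, COL3A1 and LUM were detected on all 6 arrays, and DCN and PDGFRB on all 3 controls and 1 transfected array. Both of the latter were therefore kept through the controls, where they are higher. Of the 5, 4 were lower in transfected cells, with a median of -0.57 on the log2 scale, while 49.7% of all kept probes were higher. Without control 1 the log2 fold changes were -0.51 for COL1A1, -0.13 for COL3A1, -0.25 for DCN, -0.6 for PDGFRB and 0.11 for LUM. Their part in the results was not tested. The kidney lineage genes PAX2, PAX8, LHX1, SIX2, WT1 and SALL1 were also detected on none, while EYA1, OSR1 and GATA3 were kept. OSR1 was detected on all 3 controls and on no transfected array, so it was kept through the controls. GATA3 was detected on all 3 controls and 2 of the 3 transfected arrays. In RNA from whole cultures, fewer cells expressing a gene and less of its RNA per cell cannot be told apart. The design text calls the arrays biological triplicates, and their small number limits the precision of every value.

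Of the 13 member probes, 9 from 8 genes were kept. All 9 kept probes were higher on average in transfected than in control cells, by 1.54-fold to 6.8-fold, with 1.22 as the median on the log2 scale, while the median of all 14200 kept probes was 0 and 49.7% of them were higher. For 5 of the 9, in NFKB1, NFKB2, RELB, REL and TNFAIP3, all 3 transfected arrays lay above all 3 controls. That was so for 14.8% of all kept probes, beside which the members' count is a description only, since the members were listed with this comparison known. A probe had to be detected on 3 arrays to be kept, so the kept probes do not stand for all members.

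**Figure D1:**
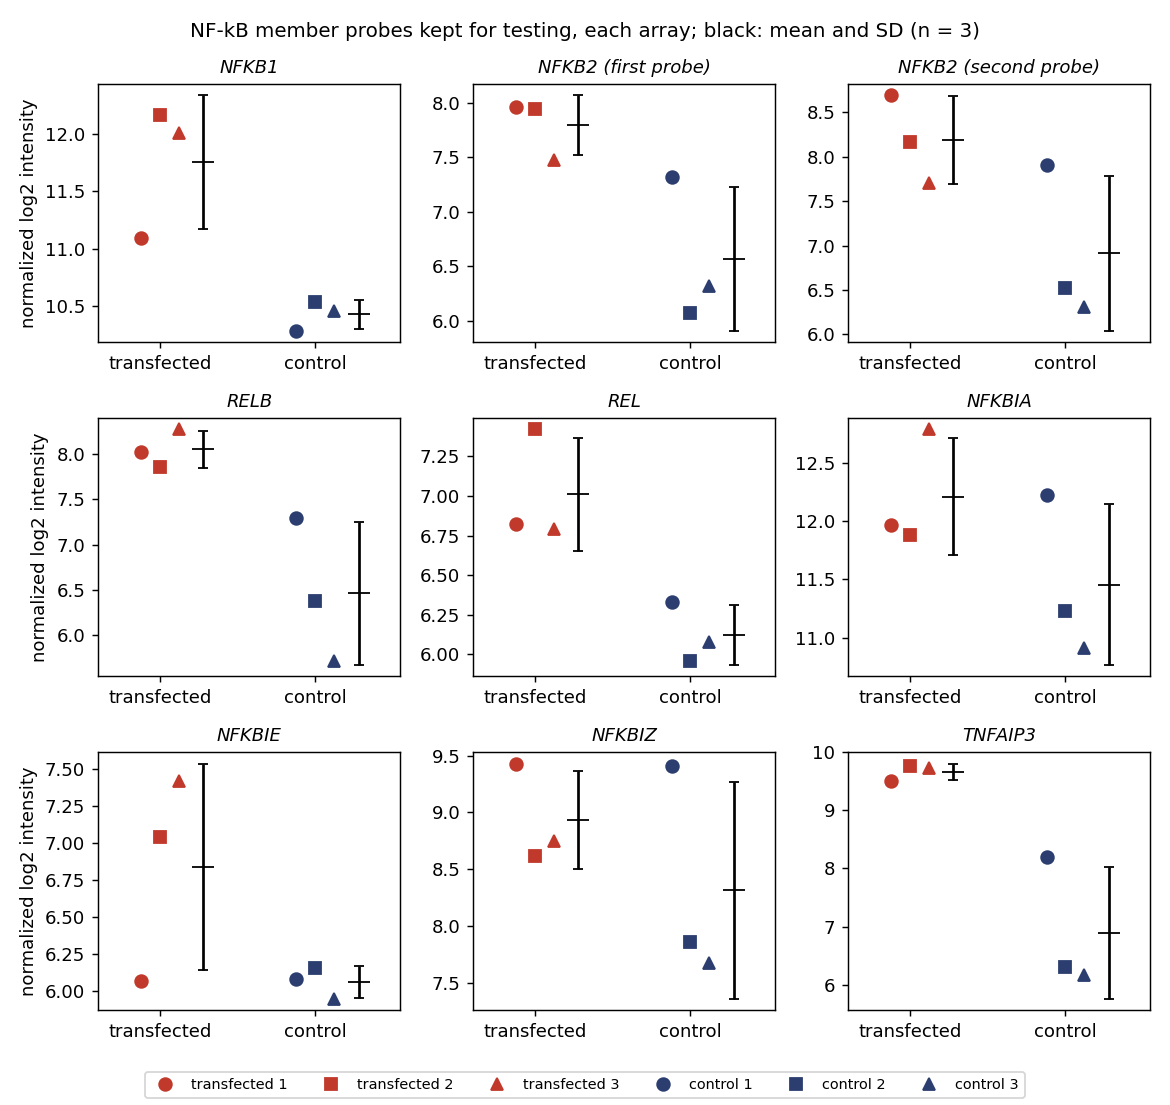
Normalized log2 intensity (vertical axis, a separate scale in each panel) of the 9 kept member probes on each of the 3 transfected and 3 control arrays, with the mean and SD of each group in black. Transfected arrays lay above all controls in 5 panels, and control 1 lay well above controls 2 and 3 in 6 panels.

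Among the subunits, NFKB1, whose p105 product is both a precursor of p50 and an inhibitor, had raw signals of 1504, 4151 and 4635 in transfected arrays 1 to 3, against 1667, 1492 and 1737 in controls 1 to 3. After normalization, which allows for the dimness of transfected array 1, its log2 intensities were 11.09, 12.16 and 12.01 in transfected cells, against 10.29, 10.54 and 10.46 in controls. The groups did not overlap, and transfected array 1 lay closest to the controls. Its mean was 11.75 ± 0.58 in transfected cells and 10.43 ± 0.13 in controls (SD, n = 3 each), a log2 fold change of 1.32 ± 0.29 (moderated SE), or 2.5-fold. NFKB1 was the member whose controls agreed most closely among the kept subunit probes. The difference of control 1 from the mean of controls 2 and 3 was -0.21 on the log2 scale.

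NFKB2, whose p100 product holds RELB in the cytoplasm until it is processed to p52, had 3 probes. On ILMN_1799062 the log2 intensities were 7.96, 7.95 and 7.48 in transfected cells, against 7.32, 6.07 and 6.32 in controls. The second kept probe, ILMN_2390859, gave 8.69, 8.17 and 7.70 in transfected cells, against 7.91, 6.52 and 6.31 in controls. Transfected arrays lay above all controls on the first of these probes, and on the second transfected array 3 lay below control 1. The log2 fold changes were 1.22 ± 0.33 and 1.27 ± 0.43 (SE), which differ by less than either error. The third NFKB2 probe, ILMN_2247868, was annotated to another transcript and was detected on none of the 6 arrays, with a raw signal of 117 to 137.

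RELB, the partner of p52 in the noncanonical pathway, had log2 intensities of 8.02, 7.86 and 8.27 in transfected cells, against 7.29, 6.38 and 5.72 in controls, and was detected on 2 of the 3 controls. All transfected arrays lay above all controls, and the controls were spread over more than a log2 unit. Means were 8.05 ± 0.21 in transfected cells and 6.46 ± 0.79 in controls (SD), a log2 fold change of 1.59 ± 0.36 (SE). With control 3, which missed detection, set no lower than the lowest detected level of its array, the difference for RELB was 2.91-fold. Without control 3 the log2 fold change was 1.22. REL, the c-Rel subunit best known from lymphocytes, gave 6.82, 7.42 and 6.79 in transfected cells on its kept probe, against 6.33, 5.96 and 6.08 in controls. The groups did not overlap and the log2 fold change was 0.88 ± 0.23 (SE). Its second probe, ILMN_2124064, was detected on 2 of the 3 transfected arrays and on no control. No fold is given for it, because its mean of 5.82 in transfected cells did not exceed 5.87, the mean over the controls of the lowest level among the detected probes of each array.

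RELA, which encodes p65 and is the main activating subunit in most cell types, was not well above background on any array. Its single probe had raw signals of 129, 155 and 157 in transfected arrays, against 147, 124 and 143 in controls, with detection p-values of 0.0408 to 0.271 in transfected arrays and 0.161 to 0.282 in controls. The level of RELA messenger RNA is therefore not measured by this probe in either group.

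Among the inhibitors, TNFAIP3, the ubiquitin-editing enzyme A20 that shuts off signalling upstream of IKK, had the largest difference of the 9 kept probes. Raw signals were 555, 919 and 1077 in transfected arrays 1 to 3, against 494, 172 and 201 in controls. Normalized log2 intensities were 9.50, 9.76 and 9.72 in transfected cells, against 8.20, 6.31 and 6.17 in controls. The transfected arrays lay close together and above all controls, while control 1 lay between them and the other controls. Means were 9.66 ± 0.14 in transfected cells and 6.89 ± 1.13 in controls (SD), a log2 fold change of 2.77 ± 0.49 (SE), or 6.8-fold. Without control 1 the log2 fold change was 3.42, or 10.7-fold.

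NFKBIA, the classical inhibitor that is resynthesized after each round of activation, was bright on every array. Its raw signals were 2754, 3446 and 7939 in transfected cells, against 6067, 2360 and 2341 in controls. The log2 intensities were 11.97, 11.88 and 12.79 in transfected cells, against 12.23, 11.23 and 10.91 in controls. The groups overlapped, because control 1 lay above transfected arrays 1 and 2. The log2 fold change was 0.76 ± 0.38 (SE), 1.15 without control 1, 0.49 without control 3 and 0.47 without transfected array 3.

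NFKBIE gave 6.07, 7.04 and 7.42 in transfected cells, against 6.08, 6.16 and 5.95 in controls. Transfected array 1, on which it missed detection, lay level with the controls, and the other 2 lay above them. The log2 fold change was 0.78 ± 0.32 (SE), 1.16 without transfected array 1 and 0.49 without transfected array 3. NFKBIZ encodes IkB-zeta, a nuclear family member that acts as a coactivator for some inflammatory genes. On its kept probe, ILMN_1719695, it gave 9.43, 8.62 and 8.75 in transfected cells, against 9.41, 7.86 and 7.67 in controls. Control 1 lay above transfected arrays 2 and 3, and the log2 fold change was 0.62 ± 0.45 (SE), 1.17 without control 1, 0.40 without control 2, 0.30 without control 3 and 0.37 without transfected array 1. The second NFKBIZ probe, ILMN_1770260, was detected on no array.

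**Figure D2:**
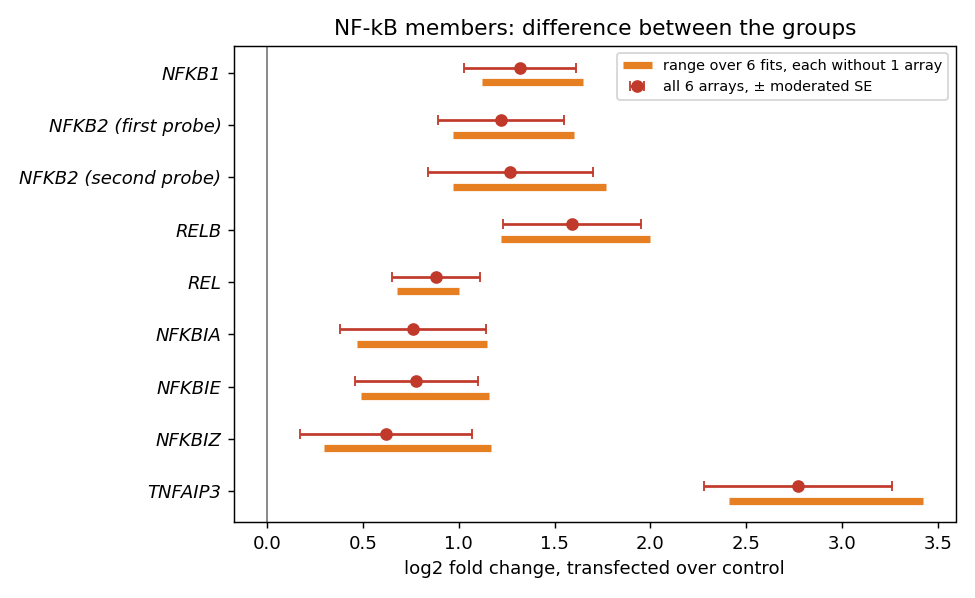
Log2 fold change, transfected over control, of the 9 kept member probes (horizontal axis), with points and bars for all 6 arrays ± moderated SE and thick lines for the range over 6 fits that each leave out 1 array. Every line lies right of 0, from 0.30 at its lowest for NFKBIZ to 3.42 at its highest for TNFAIP3.

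Leaving out any single array kept all 9 kept probes higher in transfected cells, and the median over the probes then lay between 0.97 and 1.25 on the log2 scale. Without background correction, which leaves the background in both groups and so compresses differences at low levels, all 9 were still higher but several by less. The log2 fold change was then 1.83 for TNFAIP3, 0.82 for RELB, 0.62 and 0.71 on the NFKB2 probes, 0.38 for REL and 0.34 for NFKBIE. With normexp fitted on the signal itself it was 0.55 for REL and 0.49 for NFKBIE.

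Each member probe was read from 26 to 57 beads per array, and the standard error over beads, which covers the measurement on 1 array only, was 2.47% to 6.5% of the signal. The comparison of the groups rests on the spread between arrays. Over all kept probes the median SD was 0.29 in transfected cells and 0.20 in controls. NFKB2, RELB, NFKBIA, NFKBIZ and TNFAIP3 had control SDs of 0.66 to 1.13, and NFKB1, REL and NFKBIE of 0.11 to 0.19.

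The larger of these SDs mainly reflect the position of control 1. For RELB, controls 2 and 3 also differed, by 0.66 log2 units. Control 1 lay more than 1 log2 unit above the mean of controls 2 and 3 on 6 of the 9 kept probes, those of NFKB2, RELB, NFKBIA, NFKBIZ and TNFAIP3. Of all 14200 kept probes, 2.19% did so. The differences of control 1 from controls 2 and 3 were 1.12 and 1.5 on the NFKB2 probes, 1.24 for RELB, 1.16 for NFKBIA, 1.64 for NFKBIZ and 1.96 for TNFAIP3. For NFKB1, REL and NFKBIE they were -0.21, 0.31 and 0.03. The transfected mean, measured against the same pair of controls, was higher by 1.60 and 1.77 for NFKB2, 2.00 for RELB, 1.15 for NFKBIA, 1.17 for NFKBIZ and 3.42 for TNFAIP3, and by 1.25, 0.99 and 0.79 for NFKB1, REL and NFKBIE. These sets of differences share controls 2 and 3 as their baseline. Set against control 1 alone, transfected cells were higher by 1.46 log2 units for both NFKB1 and TNFAIP3, and the difference was -0.01 for NFKBIA and -0.47 for NFKBIZ. Over the 9 probes, transfected arrays 1 to 3 had median differences from controls 2 and 3 of 1.67, 1.66 and 1.37, and control 1 had 1.16, while the median of all kept probes lay between -0.03 and 0. Control 1 also had the highest mean signal and the most detected probes, and the part of either in these values was not tested.

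**Figure D3:**
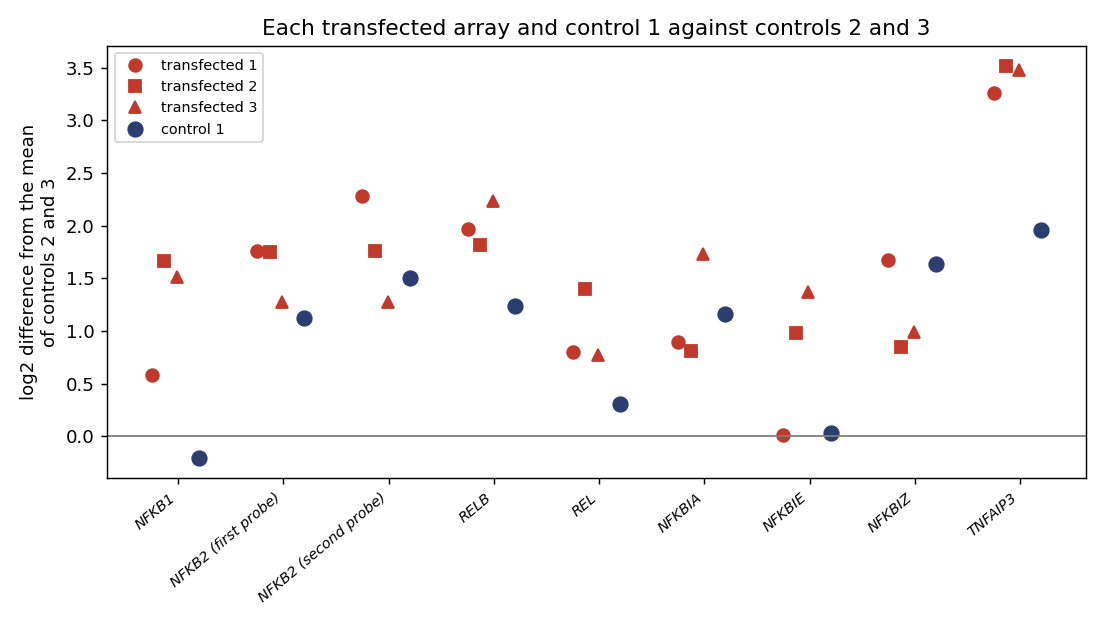
Log2 difference of each transfected array (red) and of control 1 (blue) from the mean of controls 2 and 3 (vertical axis) for the 9 kept member probes (horizontal axis). Control 1 lies between 1.12 and 1.96 for 6 probes and between -0.21 and 0.31 for NFKB1, REL and NFKBIE, while TNFAIP3 lies above 3 on all transfected arrays.

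Other genes of the pathway, 72 in 4 lists, placed the members in context. Where a gene had several kept probes the brightest on average stood for it, and 42 of the 72 were measured. In the limma test, adjusted over all kept probes by Benjamini-Hochberg with a threshold of 0.05, 0 of the 42 passed in either direction. Of all kept probes a single one passed (0.00704% of those tested), an unnamed probe with a lower level in transfected cells. Before adjustment 11 of the 42 were higher and 5 lower with p under 0.05. Of all kept probes 26.1% had such a p, and 12.2% had it as higher. The lists were chosen with earlier results of these data known. The counts beside these shares, and the p-values of single list genes below, are therefore a description only.

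The receptors and adaptors split evenly, 5 of 10 measured genes higher and 5 lower, around a median of 0.02 on the log2 scale. TNFRSF1A, the main receptor for tumour necrosis factor, had 8.72, 8.94 and 9.22 in transfected cells, against 9.96, 10.15 and 9.93 in controls, a log2 fold change of -1.05 ± 0.19 (SE, limma adjusted p = 0.0652). All its transfected arrays lay below all controls. RBCK1, the HOIL-1 subunit of the linear ubiquitin ligase, had -0.55 ± 0.25, and -0.31 without control 1. At the other end, BIRC2, the ubiquitin ligase cIAP1, had 0.57 ± 0.23 on its brighter probe and -0.44 on its other kept probe. TLR3, the receptor for double-stranded RNA, was detected on all 3 transfected arrays and 1 of the 3 controls. Its groups overlapped, with a log2 fold change of 0.40 ± 0.23. With each control set no lower than the lowest detected level of its array, the difference was 1.13-fold.

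The kinases divided 4 and 4 with a median of -0.04 on the log2 scale. CHUK (IKK-alpha) had a log2 fold change of 0.52 ± 0.22 and IKBKE 0.48 ± 0.20. The lowest were IKBKG (NEMO), the regulatory subunit of IKK, and TAB1, an activator of the kinase TAK1. IKBKG had 8.15, 8.04 and 8.35 in transfected cells, against 9.25, 9.30 and 8.94 in controls, a log2 fold change of -0.98 ± 0.19 (SE, limma adjusted p = 0.0652), and TAB1 had -0.73 ± 0.19. For both, the groups did not overlap. The other inhibitors and modulators had 8 of 11 higher and 3 lower, with a median of 0.14. Their extremes were the repressor NKRF at 0.65 ± 0.19 and the deubiquitinase CYLD at 0.41 ± 0.25 (0.21 without control 1), and at the lower end N4BP1 at -0.49 ± 0.20 and COMMD1 at -0.08 ± 0.18 (-0.20 without control 1).

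Known target genes of NF-kB had 11 of 13 measured genes higher and 2 lower. Their median was 1.17 on the log2 scale. These counts leave out 10 target genes whose probes were not detected often enough, among them ICAM1, VCAM1, IL6, CXCL3 and MMP9, which were detected on no array. CXCL2, CXCL10, TNF and PTX3 were detected on all 3 transfected arrays and 1 of the 3 controls, so they were kept through the group in which they are high, and the list's count and median depend on that filter. CXCL8, the neutrophil chemokine interleukin-8, had 13.30, 12.84 and 12.56 in transfected cells, against 11.85, 8.43 and 8.28 in controls, a log2 fold change of 3.38 ± 0.84 (SE, limma adjusted p = 0.0822). Its second kept probe gave 3.49, and without control 1 the first gave 4.54. CXCL2, a related chemokine, had 8.03, 7.67 and 7.79 in transfected cells, against 6.49, 5.01 and 4.97 in controls (limma adjusted p = 0.0652). With each control set no lower than the lowest detected level of its array, the difference was 3.34-fold. The lowest of the list were the caspase-8 regulator CFLAR at -0.61 ± 0.28 and the mitochondrial superoxide dismutase SOD2 at -0.08 ± 0.18. Control 1 lay more than 1 log2 unit above controls 2 and 3 for 9 of the 13 target genes, and by 3.50 for CXCL8. The calls among the 42 pathway genes depended on single arrays. Without control 1, 5 passed the adjusted threshold, all higher and all in the target list, namely CCL20, CXCL10, CXCL2, CXCL8 and TNF, where 0.106% of all kept probes passed. CXCL2, CXCL10 and TNF were detected on neither of the 2 remaining controls. Since these genes were kept through the transfected arrays, their calls here and in the fits below are a description only. Without transfected array 1, 4 passed, CXCL10 and CXCL2 as higher and IKBKG and TNFRSF1A as lower, where 3.11% passed. Without transfected array 3, 6 passed, CXCL10, CXCL2 and TNF as higher and IKBKG, LTBR and TNFRSF1A as lower, where 11.6% passed. None passed without control 2, control 3 or transfected array 2, where 0.00% of all kept probes did.

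**Figure D4:**
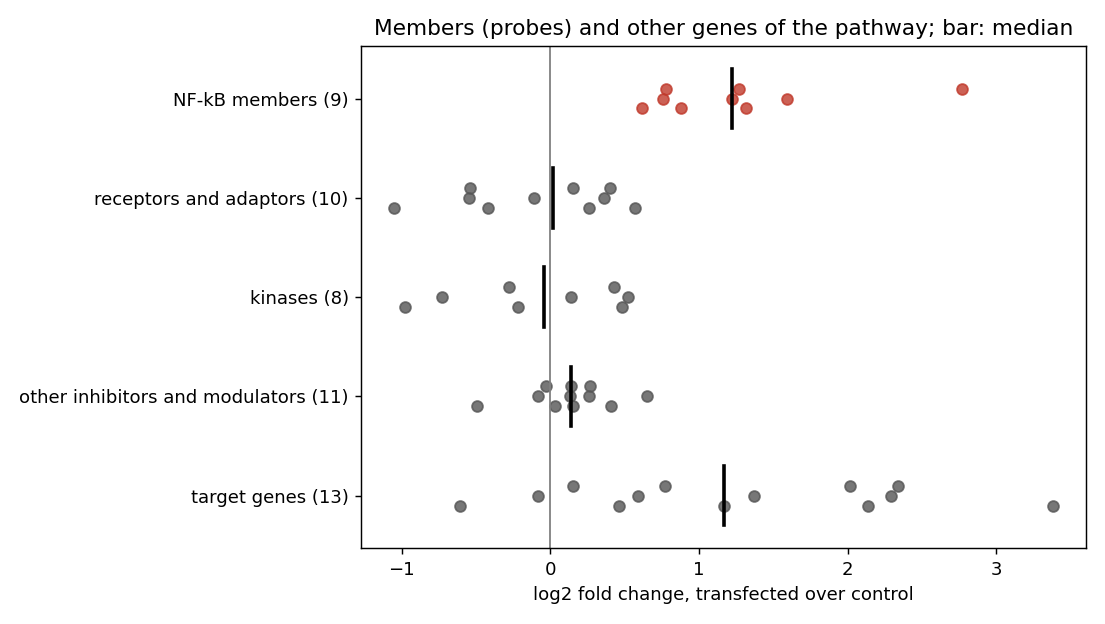
Log2 fold change, transfected over control (horizontal axis), of the 9 kept NF-kB member probes (top row, red) and of the measured genes in 4 lists of other pathway genes (grey), with the median of each row as a black bar. Medians are 1.22 for the members, 0.02 for receptors and adaptors, -0.04 for kinases, 0.14 for other inhibitors and 1.17 for target genes.

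The genes most like NFKBIA and NFKB1 across the 6 arrays differed. Of 9789 other genes, those with the highest Pearson r to NFKBIA were CYB5R2 (0.984), TFE3 and IRF1 (0.978 each), CYP3A5 (0.975) and ZNF714 (0.974). Their ranges over the arrays, in that order, were 2.03, 0.46, 1.86, 0.25 and 0.9 log2 units, and CYB5R2 was detected on 4 arrays. IRF1, an interferon regulatory transcription factor that is also in the list of target genes, had 8.75, 8.92 and 9.91 in transfected cells, against 9.09, 8.13 and 8.05 in controls. As with NFKBIA, its highest value was on transfected array 3 and control 1 lay above transfected arrays 1 and 2. For NFKB1 the genes with the highest r were GTF2H2 (0.994), YY1 (0.993), and STAMBP, IQCC and POMZP3 (0.992 each). Their ranges, in that order, were 2, 0.84, 0.59, 1 and 1.1 log2 units. YY1, a zinc finger transcription factor, had 11.34, 11.74 and 11.66 in transfected cells, against 10.90, 11.05 and 10.94 in controls. These correlations over 6 arrays, picked as the highest of all measured genes, describe likeness only, and the points share the arrays' brightness and normalization.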

How the data were processed

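Per the file headers, the table deposited by the authors holds for each probe and array a non-normalized signal intensity, a count of beads, the standard error of that signal and a detection p-value. The submitters' processing notes name BeadStudio without a version. A second table holds the authors' processed intensities, a straight line of the signal of the same array with a background subtracted (r at least 0.999997). Its scale is linear and uncentred, with column medians of 9.47 to 15.5, and its method is not named there.

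Background correction (from the detection p-values, with an offset of 16), quantile normalization and log2 transformation used neqc of limma 3.58.1 in R 4.3.3. The 1 duplicated probe row was averaged. Probes detected at p under 0.01 on at least 3 arrays were fitted with lmFit and eBayes, two-sided, with Benjamini-Hochberg adjustment over all of them. The procedure was run on simulated data with independent noise for each probe and array. That simulation held no shift shared by the probes of an array, so it does not cover such a shift. Fold changes are transfected over control. Symbols were updated through the gene identifier to RefSeq on GRCh38.p14. Replicates were numbered by deposit order and pair no arrays. Members, lists and the rules for naming genes (every member probe, and the 2 highest and 2 lowest of each pathway list, plus the 5 genes most correlated with NFKBIA and with NFKB1) were chosen with earlier results of these data known; TNF, CCL20, CXCL10, PTX3 and LTBR, outside the naming rule, were named after their values were seen. Alternatives changed the background correction, normalization, source table, filter, probe selection and weights, or left out 1 array.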

Additional observations from a re-analysis of the deposited data

How the results depend on the processing

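All 9 kept member probes were higher in transfected cells under each alternative that kept them. Without the filter on dim probes 11 of 13 were higher, and 7 of 7 among probes detected on all 6 arrays. The 11 include the RELA probe, detected on no array, and the second REL probe, detected on no control, so neither is read as a difference. Their median log2 fold change was 0.71 without background correction, 0.85 with normexp on the signal, 1.32 on the authors' processed intensities and 1.59 with array weights. The number of all probes past the adjusted threshold, 1 as reported, was 343 without background correction, 245 with normexp on the signal, 258 among probes detected on all arrays and 7036 with array weights. It was 2 on the authors' processed intensities (1 higher and 1 lower) and 0 with cyclic loess, equal medians or 1 probe per gene. Leaving out 1 array gave 0 to 1646. The number of other pathway genes past it, 0 as reported, was 5 without background correction and with normexp on the signal, 2 among probes detected on all arrays and 23 with array weights, and 0 to 6 with 1 array left out. With array weights 49.5% of all probes passed. TNFAIP3, RELB, NFKB2, REL and NFKBIE moved most without background correction, to smaller differences. NFKBIA and NFKBIZ moved most without control 1, to log2 fold changes of 1.15 and 1.17, and NFKB1 without transfected array 1, to 1.65. The cause of these differences was not tested. No paired analysis was possible because the labels number no replicates. The signal of RELA lay too near background for any comparison.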
